A study of Bubalus bubalis with 6 samples.

Results

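The collagen hydroxylases and crosslinking enzymes are 10 genes chosen by name, without use of their measured values: the prolyl hydroxylase genes P4HA1, P4HA2 and P3H2, the lysyl hydroxylase genes PLOD1 and PLOD2, the lysyl oxidase genes LOX, LOXL1, LOXL2 and LOXL3, and SERPINH1. All 10 are among the 24616 genes of the deposited table under these symbols, and all 10 are among the 15576 genes tested. Water buffalo (Bubalus bubalis) muscle stem cells (MuSCs) were compared between 3 samples in growth medium with fetal bovine serum (GM samples, proliferation) and 3 samples switched at near confluence to differentiation medium with a low share of horse serum (DM samples, differentiation). The cells were primary cells from fetal longissimus muscle, freed with collagenase and trypsin, and no sort is described. Strain, sex and the number of animals are not given in the sources used here. Medium, serum, days in culture and density changed together between GM and DM samples and cannot be told apart. Nothing states that samples of a group were separate cultures, so p-values measure the spread between these samples, which may be technical.

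Collagen chains are modified in the endoplasmic reticulum before they are secreted. Prolyl 4-hydroxylases convert proline to 4-hydroxyproline, which holds the triple helix together at body temperature, prolyl 3-hydroxylases modify a few further prolines, and lysyl hydroxylases make hydroxylysine, a site for sugar attachment and for stable crosslinks. SERPINH1 encodes HSP47, a chaperone that binds the folded collagen triple helix. Outside the cell, lysyl oxidases, which are copper-dependent amine oxidases, turn lysine and hydroxylysine into reactive aldehydes that crosslink collagen and elastin. In skeletal muscle these products form the connective tissue around fibers and influence the toughness of meat.

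Reads counted on genes summed to between 35615864 and 40305237 per sample. Values are given as CPM, counts scaled to a common TMM-normalized library size (TMM being edgeR's scaling between samples), as mean ± SD over 3 samples, and fold changes are DM over GM on the log2 scale. A gene passed the test at an adjusted p-value under 0.05 from edgeR's quasi-likelihood test with Benjamini-Hochberg adjustment over all tested genes, and it was called when its absolute log2 fold change was also above 1. DM replicate 3 lay apart from DM replicates 1 and 2 for several genes below, and values without it are given where they matter. Of 9 myogenic markers 8 were listed and all 8 had counts in every sample, summing to 2777 to 3311 CPM (GM) and 5359 to 7372 CPM (DM). Of these 5 rose, while MYF5 and PAX7, which mark less differentiated cells, fell by 2.70 and 0.92 on the log2 scale. DES did not pass the test with all samples (log2 fold change -0.15, edgeR adjusted p = 0.217). Without DM replicate 3 its log2 fold change was -0.27 (edgeR adjusted p = 0.000844). DES made up most of the GM sum, at 2274 ± 103 CPM (GM) and 2051 ± 323 CPM (DM). Fibroblast markers were also abundant. Of 8 such genes 7 had counts in every sample, TCF21 was at 0 in DM samples, and the list summed to 3794 to 4169 CPM (GM) and 7663 to 9620 CPM (DM). Of the 7 tested, 6 rose and COL15A1 fell by 2.34 on the log2 scale. The summed adipocyte, endothelial and macrophage markers did not exceed 8.97, 6.05 and 13.3 CPM in any sample, and those of smooth muscle and pericytes lay between 1207 and 1689 CPM. Most of that last sum was ACTA2 alone (1191 ± 97.7 CPM in GM, 1351 ± 107 CPM in DM). In the same list RGS5 held at most 4 counts in a sample, and MYH11 averaged 3.32 CPM (GM) and 5.69 CPM (DM). NOTCH3 averaged 58.1 and 65.1 CPM, and CSPG4 63.9 ± 2.73 CPM (GM) and 86.5 ± 52.7 CPM (DM). CSPG4 was at 147 CPM in DM replicate 3, beside 58.5 and 53.6 CPM in DM replicates 1 and 2. Its log2 fold change was 0.44 with all samples (edgeR adjusted p = 0.240). Without DM replicate 3 it was -0.18 (edgeR adjusted p = 0.0368). The defining leukocyte marker PTPRC held at most 2 counts in a sample. The part of the fibroblast markers in the results below was not tested. In bulk RNA, a change in the number of cells of one kind and a change in RNA per cell cannot be told apart.

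Of the 10 genes, LOXL2 was called higher and P3H2 was called lower in DM samples. These are 2 of 10, where 25.3% of all tested genes were called, 15.0% higher and 10.3% lower. Without the fold minimum, 9 of the 10 passed the test, against 63.0% of all tested genes. The 6 that rose were LOX, LOXL2, PLOD1, PLOD2, P4HA1 and P4HA2 (31.6% of all tested genes rose), and the 3 that fell were P3H2, LOXL1 and SERPINH1 (31.4% of all tested genes fell). LOXL3 did not pass. The same 9 genes had no overlap between groups, and for 68.8% of all tested genes. The median log2 fold change of the 10 was 0.57, beside 0.03 for all tested genes, and the median absolute value was 0.67, beside 0.57.

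**Figure D1:**
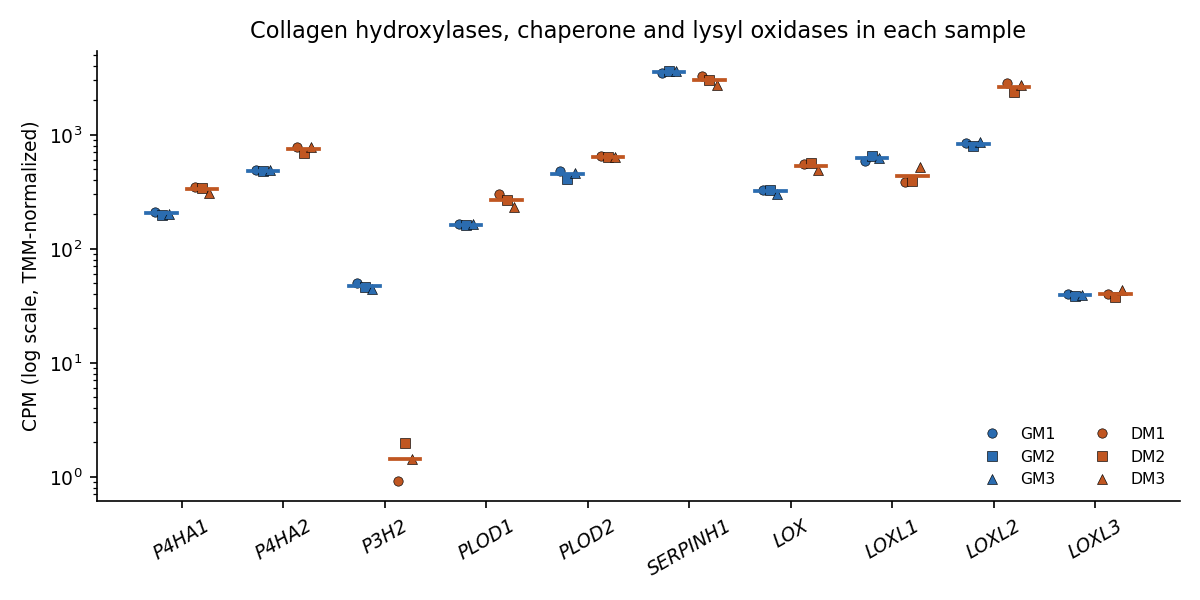
CPM of each gene (log axis) in the 3 GM samples (blue) and the 3 DM samples (orange), with the group mean as a bar. The P3H2 points of DM samples lie between 0.918 and 1.97 CPM, far under its GM points, the LOXL2 points of DM samples lie between 2367 and 2859 CPM, and the LOXL3 points of both groups lie side by side near 40 CPM.

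P3H2 encodes prolyl 3-hydroxylase 2, which acts on collagen chains including those of type IV. P3H2 (ENSBTAG00000021025) lies on the plus strand of chromosome 1, from 77752546 to 77932253 as the table gives it. GM replicates 1, 2 and 3 held 2061, 1930 and 1668 counts of P3H2, or 49.7, 46.4 and 44.0 CPM. DM replicates 1, 2 and 3 held 31, 72 and 53 counts, or 0.918, 1.97 and 1.43 CPM. Every DM sample was thus low and every GM sample high, with no overlap and with counts above the detection limit of 3 in all samples. P3H2 fell by 5.01 on the log2 scale (± 0.18 SE, edgeR adjusted p = 7.04e-09), from 46.7 ± 2.86 CPM to 1.44 ± 0.525 CPM, a level 32.4-fold lower. A larger absolute change was seen in 1.496% of tested genes. With each sample left out in turn the log2 fold change lay between -5.28 and -4.77.

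P4HA1 and P4HA2 encode catalytic alpha subunits of prolyl 4-hydroxylase, which work in a tetramer with the beta subunit P4HB. P4HA1 (ENSBTAG00000032996, chromosome 28, 29229501 to 29329487) was measured at 211, 199 and 203 CPM in GM replicates 1, 2 and 3 and at 351, 338 and 309.9 CPM in DM replicates 1, 2 and 3. P4HA2 (ENSBTAG00000001116, chromosome 7, 23480315 to 23513315) was measured at 489.5, 479 and 486 CPM in GM samples and at 788, 692 and 781 CPM in DM samples, in the same order. Both were higher in each DM sample than in any GM sample. P4HA1 rose by a log2 fold change of 0.71 (± 0.065 SE, edgeR adjusted p = 4.20e-06) and P4HA2 by 0.64 (± 0.066 SE, edgeR adjusted p = 1.05e-05), that is 1.63-fold and 1.55-fold in CPM. P4HB moved the other way, falling by 0.32 on the log2 scale (2179 ± 42.6 CPM in GM, 1742 ± 165 CPM in DM, edgeR adjusted p = 0.00306). The third alpha subunit, P4HA3, was not separated between the groups (log2 fold change 0.17, edgeR adjusted p = 0.732). Its CPM was 66.0 and 58.0 in DM replicates 1 and 2, above all GM samples, but 14.0 in DM replicate 3, below them, and without DM replicate 3 its log2 fold change was 0.61 (edgeR adjusted p = 1.06e-07).

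PLOD1 and PLOD2 encode lysyl hydroxylases. PLOD1 modifies lysines in the collagen helix, while PLOD2 is known for the lysines in the short end regions, the telopeptides. PLOD1 (ENSBTAG00000002052, chromosome 16, 42595152 to 42625615) was close to constant among GM samples, at 164, 162 and 164 CPM, and spread over 301, 266 and 232 CPM in DM replicates 1, 2 and 3. PLOD2 (ENSBTAG00000007331, chromosome 1, 123322467 to 123444003) showed the reverse spread, with 486, 411 and 465 CPM in GM samples and 651, 639 and 640.5 CPM in DM samples. Neither gene overlapped between the groups. The log2 fold change was 0.71 for PLOD1 (± 0.086 SE, edgeR adjusted p = 3.61e-05) and 0.50 for PLOD2 (± 0.070 SE, edgeR adjusted p = 0.000100). The coefficient of variation of PLOD1 was 0.828% (GM) and 12.8% (DM), and that of PLOD2 was 8.54% and 1.04%. PLOD3, which also transfers sugars to hydroxylysine, did not pass the test with all samples (log2 fold change 0.20, edgeR adjusted p = 0.176), and without DM replicate 3, its lowest sample, its log2 fold change was 0.36 (edgeR adjusted p = 6.69e-05).

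SERPINH1 was the most abundant of the 10 genes in both groups. SERPINH1 (ENSBTAG00000001027, chromosome 15, 55514945 to 55525175) was measured at 3513, 3592 and 3611 CPM in GM replicates 1, 2 and 3 and at 3309.6, 3040.3 and 2728 CPM in DM replicates 1, 2 and 3. All DM samples were below all GM samples, although the gap between the nearest samples was smaller than the range among DM samples. The log2 fold change was -0.24 (± 0.074 SE, edgeR adjusted p = 0.0161). The test was no longer passed without GM replicate 2 (edgeR adjusted p = 0.0559) or without GM replicate 3 (edgeR adjusted p = 0.0621). Without DM replicate 3 the log2 fold change was -0.16 (edgeR adjusted p = 0.0332).

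Among LOX, LOXL1, LOXL2 and LOXL3, LOXL2 had the largest rise and LOXL1 fell. LOXL2, a lysyl oxidase known to act on type IV collagen (ENSBTAG00000006214, chromosome 8, 71278583 to 71349786), was measured at 853, 798 and 857 CPM in GM samples and at 2859, 2367 and 2708 CPM in DM samples. The lowest DM sample was well above the highest GM sample, and the log2 fold change was 1.66 (± 0.078 SE, edgeR adjusted p = 3.80e-08), a 3.17-fold rise in CPM. LOX, the founding member of the family (ENSBTAG00000012994, chromosome 7, 33089540 to 33101644), was measured at 327, 329 and 304 CPM in GM samples and at 550.1, 565 and 491 CPM in DM samples. It rose by a log2 fold change of 0.74 (± 0.070 SE, edgeR adjusted p = 4.93e-06). LOXL1, which is known for its role in elastic fibers (ENSBTAG00000009086, chromosome 21, 35057678 to 35082119), was measured at 595, 658 and 631 CPM in GM samples and at 386, 397 and 519.5 CPM in DM samples. LOXL1 fell by 0.53 on the log2 scale (± 0.11 SE, edgeR adjusted p = 0.00118), and by 0.67 without DM replicate 3, its highest DM sample. LOXL3 (ENSBTAG00000018578, chromosome 11, 10071901 to 10089833) was measured at 40.1, 38.5 and 39.5 CPM in GM samples, at 40.4, 37.4 and 43.6 CPM in DM samples, with overlap of the groups. Its log2 fold change was 0.04 (± 0.075 SE, edgeR adjusted p = 0.670), and its sign changed when libraries were scaled by size only (-0.06) and without DM replicate 3 (-0.01). LOXL3 overlaps HTRA2 on the opposite strand by 48 bases, and since strand use in the counting is not stated, a few reads of HTRA2 could be among its counts. The fifth gene of the family, LOXL4, went up to 70.2 ± 18.2 CPM from 19.97 ± 1.20 CPM, by 1.81 on the log2 scale (edgeR adjusted p = 2.74e-06).

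**Figure D2:**
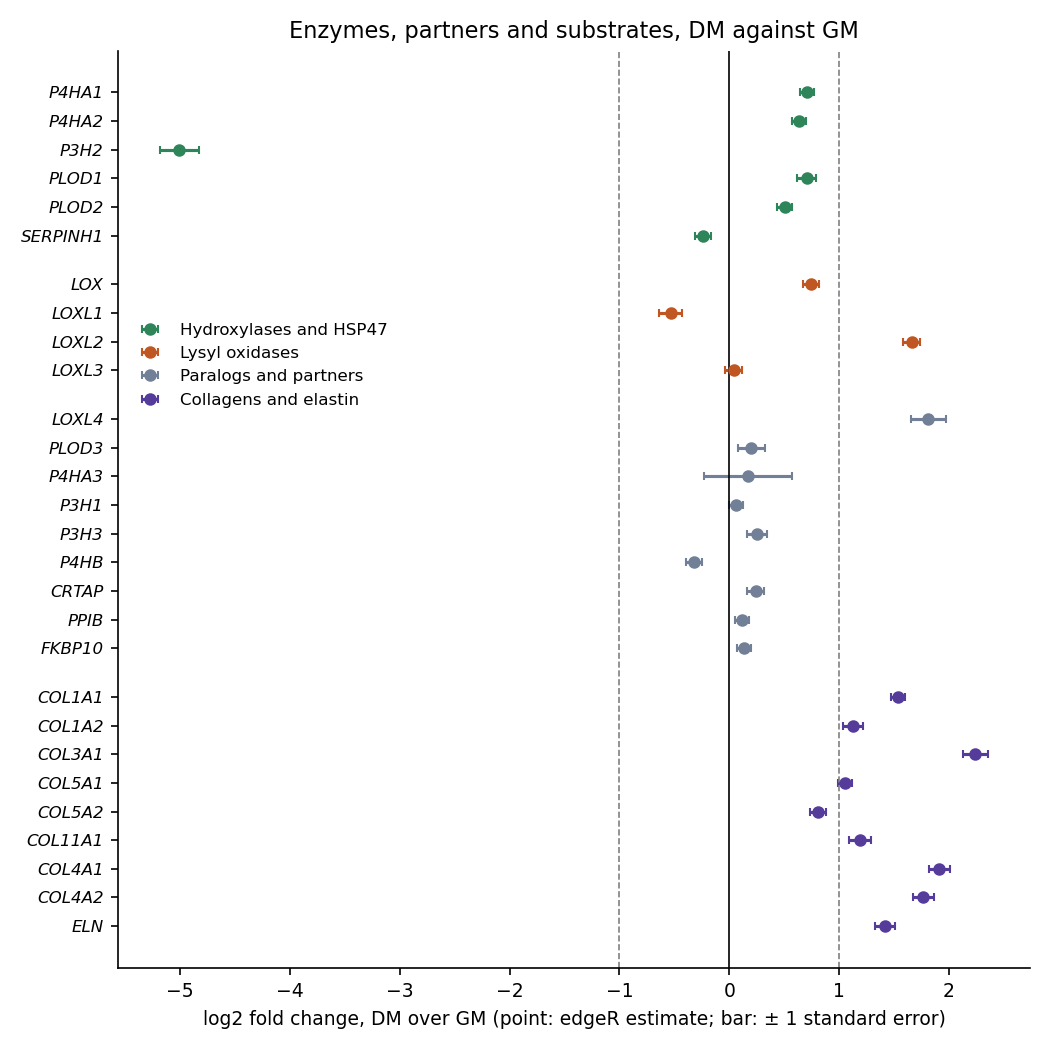
Log2 fold change of DM over GM for the 10 genes (green and orange), other paralogs and partners (grey) and collagen and elastin genes (purple), with ± 1 standard error from edgeR and dashed lines at a log2 fold change of -1 and 1. The hydroxylases that rose lie between 0.50 and 0.71, LOXL2 at 1.66 lies among the collagens, and P3H2 at -5.01 lies farthest to the left.

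Levels were compared between genes per length, as the RPKM that the authors deposited (reads per kilobase of gene and library size). In GM samples the order was SERPINH1 (1842 ± 23.5 RPKM), LOXL2 (269 ± 11.1), LOXL1 (268 ± 12.9), P4HA2 (216 ± 2.85), LOX (167 ± 7.01), PLOD2 (120.3 ± 10.5), P4HA1 (73.6 ± 2.36), PLOD1 (70.2 ± 0.711), P3H2 (14.8 ± 0.928) and LOXL3 (14.3 ± 0.338). The neighbours whose samples overlapped were LOXL2 with LOXL1 and P3H2 with LOXL3. In DM samples LOXL2 stood alone in second place (794 ± 62.9 RPKM), LOXL1 was in place 5 (173 ± 30.3 RPKM) and overlapped PLOD2, P4HA1 overlapped PLOD1, and P3H2 was last (0.427 ± 0.162 RPKM). Among the 15576 tested genes ranked by mean RPKM, SERPINH1 ranked 25 in GM samples and 48 in DM samples, LOXL2 ranked 315 and 105, and P3H2 ranked 5582 and 13084.

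The makeup of each enzyme family was compared within samples, as the share of each paralog after counts were divided by gene length. Such shares do not depend on scaling between samples. LOXL1 and LOXL2 held nearly equal shares of the lysyl oxidase family in GM samples, 36.8 ± 1.64% and 37.0 ± 1.64%, while in DM samples LOXL2 held 62.3 ± 2.35% and LOXL1 13.6 ± 2.07%. The share of LOX was 23.0 ± 0.968% in GM and 20.6 ± 2.57% in DM, with overlap. LOXL3 went from 1.97 ± 0.0535% to 1.08 ± 0.0463%. The CPM of LOXL3 overlapped between the groups, while the summed RPKM of the family went from 727 ± 2.64 to 1273 ± 63.2. P4HA1 held 23.8 ± 0.391% and 25.2 ± 1.38% of the prolyl 4-hydroxylase alpha subunits, and P4HA2 70.0 ± 0.348% and 70.4 ± 3.80%, both with overlap between the groups. PLOD1 went from 23.0 ± 0.562% to 27.4 ± 0.693% of the lysyl hydroxylases without overlap, PLOD2 from 39.4 ± 2.18% to 41.2 ± 4.02% with overlap. P3H2 held 8.27 ± 0.737% of the prolyl 3-hydroxylases in GM samples and 0.258 ± 0.104% in DM samples. P3H1, the main paralog of that family, had a log2 fold change of 0.06 (edgeR adjusted p = 0.432), and the summed RPKM of the family overlapped between the groups. A share without overlap has p = 0.1 in an exact two-sided permutation test, which no 3 against 3 comparison can go under, and 0.156 when adjusted over the 14 shares.

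**Figure D3:**
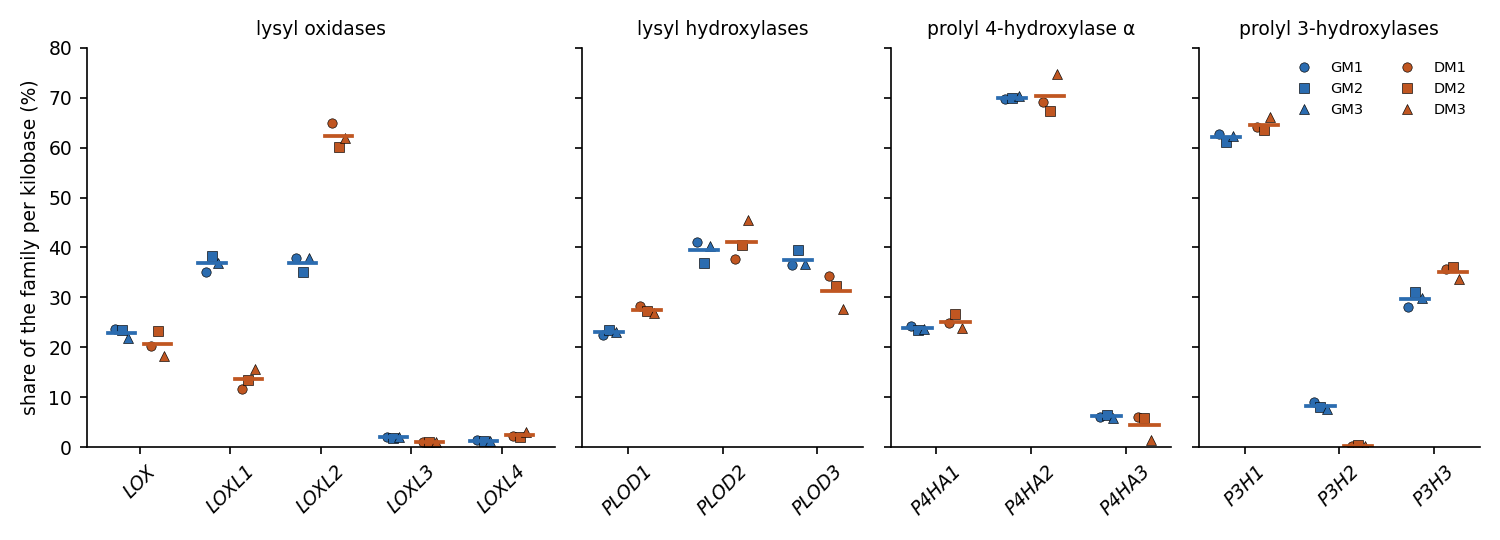
Share of each paralog in its family (% of counts per kilobase) in the 3 GM samples (blue) and the 3 DM samples (orange), with means as bars. LOXL1 and LOXL2 lie near 37% in GM samples and at 13.6% and 62.3% in DM samples, whereas P4HA1 and P4HA2 lie at like shares in both groups.

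The substrates of these enzymes rose more than most of the enzymes did. All 9 collagen and elastin genes compared were higher in DM samples, 9 passed the test and 8 were called, with a median log2 fold change of 1.42. Among all tested genes 31.6% passed the test as higher and 15.0% were called higher. COL1A1 rose by 1.54, COL1A2 by 1.13, COL3A1 by 2.24, COL5A1 by 1.05 and COL11A1 by 1.19 on the log2 scale, and COL5A2 by 0.81 without being called. COL4A1 and COL4A2, the chains of basement membrane collagen, rose by 1.91 and 1.77, and the elastin gene ELN by 1.42. The 6 fibrillar collagen genes among them together took 4.25 to 4.34% of gene counts (GM) and 10.3 to 12.6% (DM). The 10 enzyme and chaperone genes together took 0.693 to 0.704% and 0.820 to 0.876%.

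Counts of each gene were therefore set against the counts of the 6 fibrillar collagen genes in the same sample. For 9 of the 10 genes this ratio was lower in each DM sample than in any GM sample, which also held for 79.3% of all tested genes, so the direction was that of most of the transcriptome. SERPINH1 went from 86.3 ± 1.97 counts per 1000 fibrillar collagen counts (GM) to 25.1 ± 0.411 (DM), a 3.43-fold lower ratio. LOXL1 went from 15.2 ± 0.889 to 3.68 ± 1.05 and P3H2 from 1.13 ± 0.0609 to 0.0122 ± 0.00473. The hydroxylases whose own CPM rose lay between these and parity. P4HA1 went from 4.93 ± 0.105 to 2.78 ± 0.132, P4HA2 from 11.7 ± 0.0741 to 6.31 ± 0.897, PLOD1 from 3.94 ± 0.0330 to 2.21 ± 0.0498 and PLOD2 from 10.96 ± 0.863 to 5.38 ± 0.571. LOX went from 7.72 ± 0.311 to 4.46 ± 0.275, and LOXL3 from 0.951 ± 0.0137 to 0.340 ± 0.0604. LOXL2 was the exception. It stood at 20.4, 19.4 and 20.8 counts per 1000 fibrillar collagen counts in GM replicates 1, 2 and 3 and at 21.5, 19.4 and 25.4 in DM replicates 1, 2 and 3, with overlap (log2 difference 0.12, exact two-sided permutation p = 0.4). The overlap rested on DM replicate 2, without which the LOXL2 difference was 0.21 (exact permutation p = 0.1), and it was 0.019 without DM replicate 3. The 9 separated ratios have p = 0.1 in the same exact test, the smallest that 3 against 3 allow, and 0.111 after adjustment over the 10 genes. Against COL4A1 and COL4A2 together, a denominator added after the values were seen, the ratio of LOXL2 again overlapped (695 ± 48.7 and 611 ± 90.7 per 1000) and the other 9 were again lower in all DM samples, as were 82.7% of all tested genes.

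A further ratio, added after the values were seen, set the counts against those of P4HB, the beta subunit of prolyl 4-hydroxylase, which itself fell. It ran the other way for most of the 10 genes. The ratio was higher in each DM sample than in any GM sample for 8 of them, as for 48.3% of all tested genes. P4HA1 went from 93.8 ± 4.53 to 192 ± 6.19 counts per 1000 P4HB counts, P4HA2 from 223 ± 6.75 to 436 ± 57.8, and LOXL2 from 384 ± 22.0 to 1527 ± 202. SERPINH1 stayed closest to P4HB, at 1641, 1614 and 1664 in GM replicates 1, 2 and 3 and at 1756, 1709 and 1747 in DM replicates 1, 2 and 3, without overlap. LOXL1 overlapped (exact two-sided permutation p = 0.4), and P3H2 was lower, from 21.4 ± 1.55 to 0.837 ± 0.317. For P4HA1, P4HA2, PLOD1, PLOD2, LOX, LOXL3 and SERPINH1 the direction of the ratio thus depended on whether fibrillar collagen or P4HB was the denominator, while P3H2 was lower against both.

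**Figure D4:**
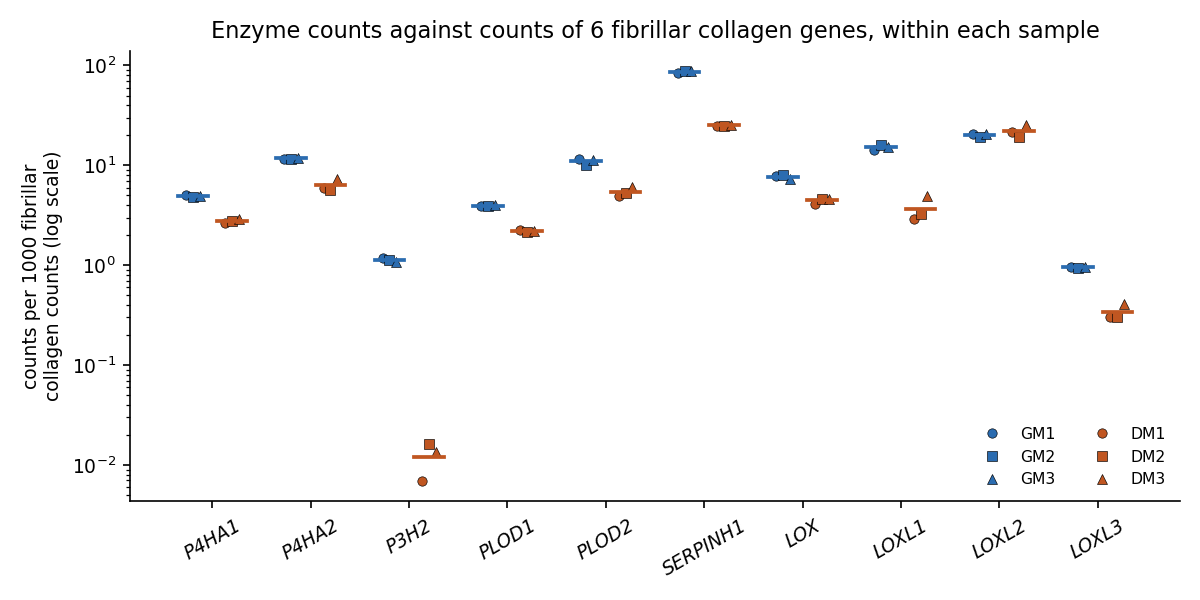
Counts of each gene per 1000 counts of the 6 fibrillar collagen genes (log axis) in the 3 GM samples (blue) and the 3 DM samples (orange), with means as bars. The DM points lie below the GM points for 9 genes, SERPINH1 going from 86.3 to 25.1, while the LOXL2 points of both groups lie near 20.

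Other genes of collagen biosynthesis were compared as a list of 30, of which all were listed and 29 were tested (MIA2 had too few counts). Of these 7 were called, 3 higher and 4 lower, and 20 passed the test, 11 of them higher and 9 lower. Both counts were near the shares of all tested genes, of which 25.3% were called and 63.0% passed the test. By direction, 15.0% of all tested genes were called higher and 10.3% lower, and 31.6% passed as higher and 31.4% as lower. The median of the list was 0.14 on the log2 scale, beside 0.03 for all tested genes. PCOLCE, an enhancer of procollagen C-proteinase, rose most, by a log2 fold change of 2.35 (233 to 1190 CPM), and the next was LOXL4. PCOLCE2, a relative of PCOLCE, fell most, by 3.16, and ADAMTS3, a procollagen N-proteinase, by 1.85 on the log2 scale, both from under 5 CPM in GM samples. The remaining calls, named after their values were seen, were SPARC (1.03), COLGALT2 (-1.96) and TLL1 (-1.51). COLGALT2 and TLL1 were low already in GM samples, at 1.54 ± 0.296 and 1.07 ± 0.353 CPM. CRTAP and PPIB work with the prolyl 3-hydroxylase P3H1 in the endoplasmic reticulum. CRTAP rose by 0.24 on the log2 scale (edgeR adjusted p = 0.0177). PPIB did not pass the test (0.11, edgeR adjusted p = 0.148, and 0.0229 without DM replicate 3). P3H3, a paralog of P3H2, rose by 0.25 with overlap of single samples (edgeR adjusted p = 0.0303). FKBP10, a prolyl isomerase that works with lysyl hydroxylase, had a log2 fold change of 0.13 (edgeR adjusted p = 0.0986).

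Several of the 10 genes, among them P4HA1, P4HA2, PLOD2, LOX and LOXL2, are known as genes that hypoxia-inducible factor can raise, so 24 other such genes were compared beside them. Of these, 20 were found by symbol and tested, and the other 4 were not analysed here. The median log2 fold change was -0.47, with 8 called, 2 higher and 6 lower, and 18 past the test, 5 higher and 13 lower. Among all tested genes 25.3% were called, 15.0% higher and 10.3% lower. The test was passed by 63.0% of all tested genes, 31.6% higher and 31.4% lower. SLC2A1, a glucose transporter, fell by 2.35 and PFKFB3, a regulator of glycolysis, by 2.18 on the log2 scale. PFKFB4 rose by 1.44 and BNIP3L, a mitophagy receptor, by 1.13. The part of hypoxia-inducible factor in the values of the 10 genes was not tested.

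The mRNA table lists 13 transcripts of the 10 genes. For the 8 genes with 1 transcript its counts equal those of the gene in all samples, so they are no second measurement. P4HA1 has 2 transcripts and P4HA2 has 3, and each was credited with 82.0 to 96.2% of its gene's counts, so reads shared between transcripts were counted more than once and the use of isoforms cannot be read from them. Fold changes of the transcripts were within 0.03 of those of their genes on the log2 scale, and the transcripts of LOXL2 and P3H2 were the ones called, where 25.6% of all tested mRNAs were called.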

How the data were processed

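PolyA RNA-seq of 3 GM and 3 DM samples was analysed. In the gene and mRNA tables the authors deposited whole-number counts of aligned reads (HISAT2 per their methods), not normalized. RPKM values were deposited beside them, scaled by the Length column and the summed gene counts of the sample. The methods name a buffalo genome, the tables list cattle Ensembl identifiers and no build, and the submitters' processing notes name Bowtie 0.12.2 and the builds mm8 and mm9. Coordinates are those of the tables. The counter and its strand setting are not given in the sources used here. Columns of the authors' own log2 fold changes, p-values and q-values, and the ncRNA table, were not used. No sequence file was at hand, so no sequence is shown.

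Features with at least 10 counts in total were tested with edgeR 4.0.16 (glmQLFit and glmQLFTest, TMM, Benjamini-Hochberg) in R 4.3.3, with GM and DM as the groups and no covariate. Standard errors were taken from the F statistic. The thresholds for a call, 1 for the absolute log2 fold change and 0.05 for the adjusted p, follow the methods of the study. Shares and ratios were compared with exact permutation tests in Python 3.11.15 (pandas 2.3.3, numpy 2.4.6). The total counts of 35615864 to 40305237 per sample limit the precision of low genes. The authors name DESeq2 in their methods, and DESeq2 1.42.0 was run as an alternative, with other normalizations, filters, thresholds, a replicate block and each sample left out in turn. On simulated data with 200 genes changed 4-fold among 15576, edgeR recovered 199 and called 1 unchanged gene. The simulation gave all genes a common dispersion, changed no gene of low mean count and balanced rises with falls. Smaller changes, such as those of most of the 10 genes, were not simulated. It checks that the code runs correctly and does not measure accuracy for these data.

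The 10 genes were chosen by name, without use of their measured values. Even so, genes, lists and tests were chosen with earlier results of these data known. Named genes were the 10 genes, the paralogs and partners given above, the 9 substrate genes, and the 2 called genes of at least 1 CPM with the largest rise and the 2 with the largest fall in the biosynthesis list and in the hypoxia list.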

Additional observations from a re-analysis of the deposited data

How the results depend on the processing

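The direction of the log2 fold change was kept under all alternatives run for 9 of the 10 genes, and LOXL3 reversed to -0.059 with library size alone, and lay between -0.010 and 0.11 with single samples left out. Its transcript reversed to -0.13 and lay between -0.031 and 0.087. Negative values came without DM replicate 3. LOXL2 and P3H2 stayed called wherever they were tested, LOXL2 between 1.56 and 1.75 and P3H2 between -5.28 and -4.77. P3H2 has an RPKM under 1 in all DM samples, so the study's filter, an RPKM minimum of 1 in most samples, leaves it out. Under that rule 2197 genes were called, 1232 higher and 965 lower, with 1 of the 10 genes called and 0 lower, and 3 biosynthesis genes and 0 lower. SERPINH1 then no longer passed the test (-0.18, adjusted p = 0.0572 from edgeR). With no minimum fold change 9813 genes were called, 4920 higher and 4893 lower, with 9 of the 10 genes (6 higher, 3 lower), 20 biosynthesis genes (11 and 9) and 18 hypoxia-responsive genes (5 and 13). Against a fold change of 2, 2293 genes were called, 1398 higher and 895 lower, with LOXL2 and P3H2 alone among the 10 genes, 5 substrate genes, all 5 higher, and 4 hypoxia-responsive genes (1 and 3). Fewer genes tested or another threshold set these counts by construction.

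No shared deviation was seen between GM and DM samples of the same replicate number. Deviations from the group means correlated between -0.02 and -0.01 for same-numbered samples and between -0.01 and 0.02 for the other pairs. Such values cannot tell whether same-numbered samples came from the same cells, which the sources used here do not state. With the replicate number as a block 3837 genes were called, and 2 of the 10. Leaving out each sample in turn, the DM minus GM difference in family share lay between -0.374 and 3.59 points for PLOD2 and between -1.77 and 1.86 points for P4HA2, reversing without DM replicate 3 for both. The cause was not tested. With COL4A1 and COL4A2 in place of the fibrillar collagens the LOXL2 ratio went from a log2 difference of 0.12 to -0.19, and both overlapped. That denominator, the P4HB ratio and the alternatives for the substrate and hypoxia lists were added after the data were seen.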
